A study of Arabidopsis thaliana with 9 samples.

Results

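Leaves of an Arabidopsis thaliana line overexpressing the calpain part of DEK1 were compared with wild-type leaves across all genes on the array. The comparison takes the 3 arrays titled 32OE and the 3 titled Col, which are 6 of the 9 arrays in the series. The calpain overexpressing line is labelled as having a T-DNA knock-out in At1g55350, the DEK1 locus, together with an ADEK1 calpain transgene, in Col-0. The wild type is Col-0 without either. The 3 remaining arrays carry the same T-DNA label and the label calpain null, and enter the measure of spread between arrays and the choice of probe sets to test. Apart from measures of array quality, their signals are given beside the others for a pair of probe sets only. All plants were sampled as leaf at growth stage 1.14 after 3 days of cold, transfer to soil after 7 days, and growth at 21 °C with 6 plants to a pot. The promoter driving the transgene and the number of independent lines are not given in the sources used here. Nor do the labels say whether the replicates were separate plants, so the p-values reflect differences among these samples that may be technical in part. The line differs from wild type by the T-DNA insertion and by the transgene at once, and their effects cannot be told apart in this comparison.

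Calpains are cytoplasmic proteases that calcium activates and that cut their targets at few sites rather than degrading them. Plants have a single calpain, DEK1, in which the protease domain lies at the end of a large protein spanning the plasma membrane. DEK1 is known for its part in specifying the epidermis, in orienting cell division and in the growth of leaves. No probe set is listed for DEK1 in the annotation used here, so the transcript of the gene itself and of the transgene could not be followed by name. An unlisted probe set may read any gene missing from the annotation, DEK1 and the transgene included.

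Of 14151 probe sets with enough signal to test, 228 differed between calpain overexpressing and wild-type leaves, or 1.61%. Rises and falls were equal in number, 114 each, or 0.806% of those tested in either direction. Calls are those with p under 0.05 in limma after Benjamini-Hochberg adjustment, from a fit to log2 signals of all 9 arrays. On all 228 the groups of 3 arrays did not overlap, which was also true of 3094 of the 14151 tested. Rises were the steeper, with 60 over 2-fold and 25 over 4-fold, against 54 and 6 among falls. Their median log2 fold change was 1.07, and that of falls -0.97. The median level over the 114 rises was 168 in calpain overexpressing leaves and 74.5 in wild type, and 26 of them had a wild-type mean below 17.6, the signal needed for testing. The falls were at a median of 73.3 in calpain overexpressing leaves and 144 in wild type. The count rested on single arrays: it was 1789 without calpain overexpressing array 1, 26 without array 2 and 49 without array 3, against 58, 55 and 30 without wild-type arrays 1, 2 and 3, and 367 without calpain null array 1. Of the 228, 22 were called whichever of the 9 arrays was left out, with the probe sets to test chosen over all 9 each time.

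**Figure D1:**
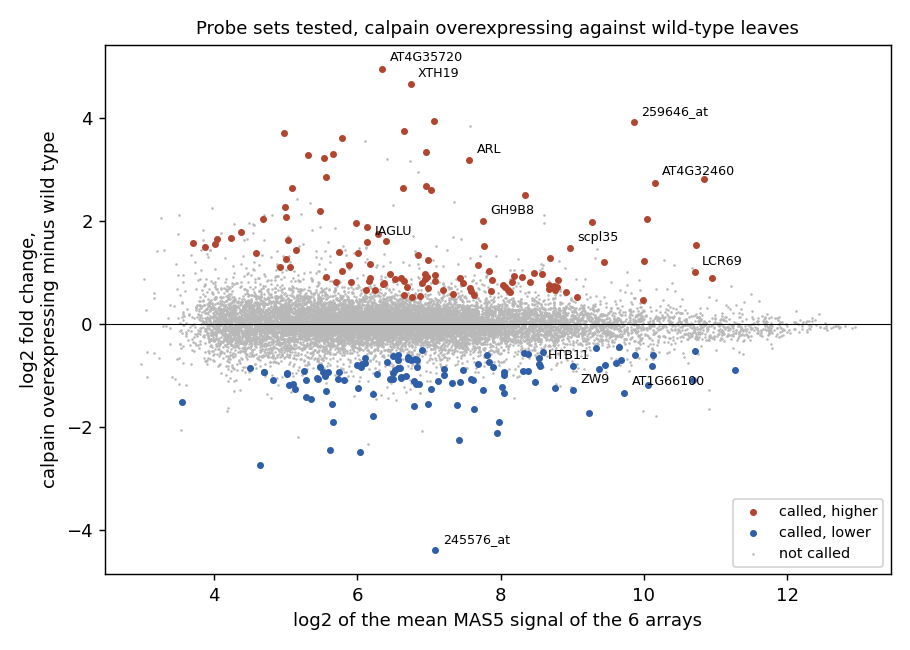
Each point is 1 of 14151 probe sets, with the log2 of its mean MAS5 signal over the 6 arrays on the horizontal axis and the log2 fold change, calpain overexpressing minus wild type, on the vertical axis. The 114 rises (red) reach 4.95 (AT4G35720), and the lowest of the 114 falls (blue) is 245576_at at -4.39.

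Many of the changed transcripts have no name in the annotation. A single gene is listed for 114 of the 228, several for 6 and none for 108. Only 21 of the single-gene calls have a symbol beyond the locus code, 19 of them rises. Falls with a symbol were ZW9 and HTB11 alone. Loci without a symbol are given by their code, and what is said of their protein families is background that entered no count. Levels below are MAS5 signals, listed for arrays 1, 2 and 3 of a group, and compare arrays within a probe set, not genes with each other.

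The call with the smallest p belongs to a probe set for which no gene is listed, 259646_at. Its signals were 1654, 1909 and 1677 in calpain overexpressing leaves, against 122, 106 and 110 in wild type. The log2 fold change was 3.91 ± 0.10 (SE) with an adjusted p of 1.98e-09 in limma, and later values in parentheses are given in the same way. The calpain null arrays read 1992, 2259 and 2272, so both lines with the T-DNA label stood far above wild type. Which transcript it reads was not determined. The deepest fall was also without a listed gene: 245576_at read 2.64, 11.4 and 17.4 in calpain overexpressing leaves, against 318, 248 and 221 in wild type (-4.39 ± 0.35, adjusted p = 0.000262). There the calpain null arrays, at 257, 172 and 222, overlapped the wild-type range. Another unlisted probe set, 252607_at, rose to 98.3, 235 and 241 in calpain overexpressing leaves, against 7.66, 12.1 and 10.4 in wild type. The remaining unlisted ones named here were 246310_at and 248684_at among rises, at 1.52 and 1.28, and 259878_at, 256832_at and 259224_at among falls, at -2.48, -1.58 and -0.91. These 8 calls held without each of the 9 arrays in turn.

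The rule named 6 single-gene rises outside the gene lists described below. AT4G35720, a gene of unknown function, read 60.8, 155 and 271 in calpain overexpressing leaves, against 1.64, 0.521 and 0.727 in wild type. Its log2 fold change of 4.95 ± 0.46 (adjusted p = 0.000606) was the highest of all called, and the wild-type signals lay below the level used for testing. AT5G24240, which encodes a kinase of the phosphatidylinositol 4-kinase gamma type, read 53.6, 59.6 and 71.0 in calpain overexpressing leaves, against 1.22, 1.17 and 1.56 in wild type (3.71 ± 0.41, adjusted p = 0.00162). Its 3 overexpressing arrays lay close together, whereas those of AT4G35720 differed severalfold. AT5G06270, which has no symbol in the annotation, was 295, 297 and 260 in calpain overexpressing leaves, against 116, 126 and 140 in wild type (1.13 ± 0.12). All 3 calls held without each array in turn. AT4G35720 and AT5G24240, however, reached the level used for testing on the overexpressing arrays alone. The probe sets to test were chosen over all 9 arrays, so a left-out overexpressing array still entered the choice of these genes.

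The other 3 of the 6 were AT4G32460, AT1G62770 and AT5G55450. AT4G32460 encodes a DUF642 protein of the cell wall. It read 1053, 2168 and 2765 in calpain overexpressing leaves, against 222, 319 and 289 in wild type (2.74 ± 0.32, adjusted p = 0.00273). AT1G62770 belongs to the inhibitors of pectin methylesterase and invertase, and read 64.6, 242 and 472 in calpain overexpressing leaves, against 6.94, 15.1 and 7.73 in wild type (3.93 ± 0.54, adjusted p = 0.00733). AT5G55450, a protein of the lipid-transfer type, read 1205, 1602 and 1471 in calpain overexpressing leaves, against 451, 716 and 699 in wild type (1.21 ± 0.17). AT4G32460 held without each array in turn. The calls of AT1G62770 and AT5G55450 were lost without overexpressing array 2, and that of AT1G62770 without wild-type array 3, with adjusted p at most 0.0548.

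Among falls of genes outside the lists, ZW9 had the smallest p. It encodes a protein of the TRAF-like type and read 308, 299 and 292 in calpain overexpressing leaves, against 707, 778 and 710 in wild type (-1.28 ± 0.11, adjusted p = 0.000369). The calpain overexpressing arrays agreed to within a coefficient of variation of 2.76%. Of the other falls named outside the lists, 3 have a known protein family tied to membranes. AT3G26935, an enzyme of the DHHC type that attaches palmitate to proteins, read 19.95, 29.7 and 22.1 in calpain overexpressing leaves, against 75.5, 75.9 and 78.0 in wild type (-1.56 ± 0.16, adjusted p = 0.0013). AT1G66760, a transporter of the MATE family, which exports small molecules from the cytoplasm, read 26.3, 36.5 and 32 in calpain overexpressing leaves, against 99.5, 108 and 146 in wild type (-1.78 ± 0.24, adjusted p = 0.00703). A second MATE transporter, AT5G65380, read 92.8, 121 and 83.3 in calpain overexpressing leaves, against 180, 196 and 219 in wild type (-0.99 ± 0.15, adjusted p = 0.00949). In each of the 4 the groups were well separated.

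AT2G30600, which encodes a protein with a BTB domain, is measured by a pair of probe sets, and both fell, by 1.07 and 1.09 on the log2 scale. The one named here read 110, 131 and 126 in calpain overexpressing leaves, against 232, 250 and 303 in wild type. AT3G52920, of unknown function, read 136, 114 and 120 in calpain overexpressing leaves, against 240, 230 and 223 in wild type (-0.89 ± 0.12). AT1G31690, of the copper amine oxidase family, was chosen after its values were seen because it too has 2 probe sets, which fell by 1.03 and 1.13. For AT1G22330, chosen likewise, 1 of its 2 probe sets was called (-0.92) and the other was not (-0.80, adjusted p = 0.073). Of the 6 falls named by rule outside the lists, ZW9, AT3G26935, AT1G66760, AT2G30600 and AT3G52920 held without each array in turn. AT5G65380 was lost without wild-type array 3, at an adjusted p of 0.0673, and AT1G31690 and AT1G22330 without any wild-type array or overexpressing array 2 or 3, among others, at up to 0.191.

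**Figure D2:**
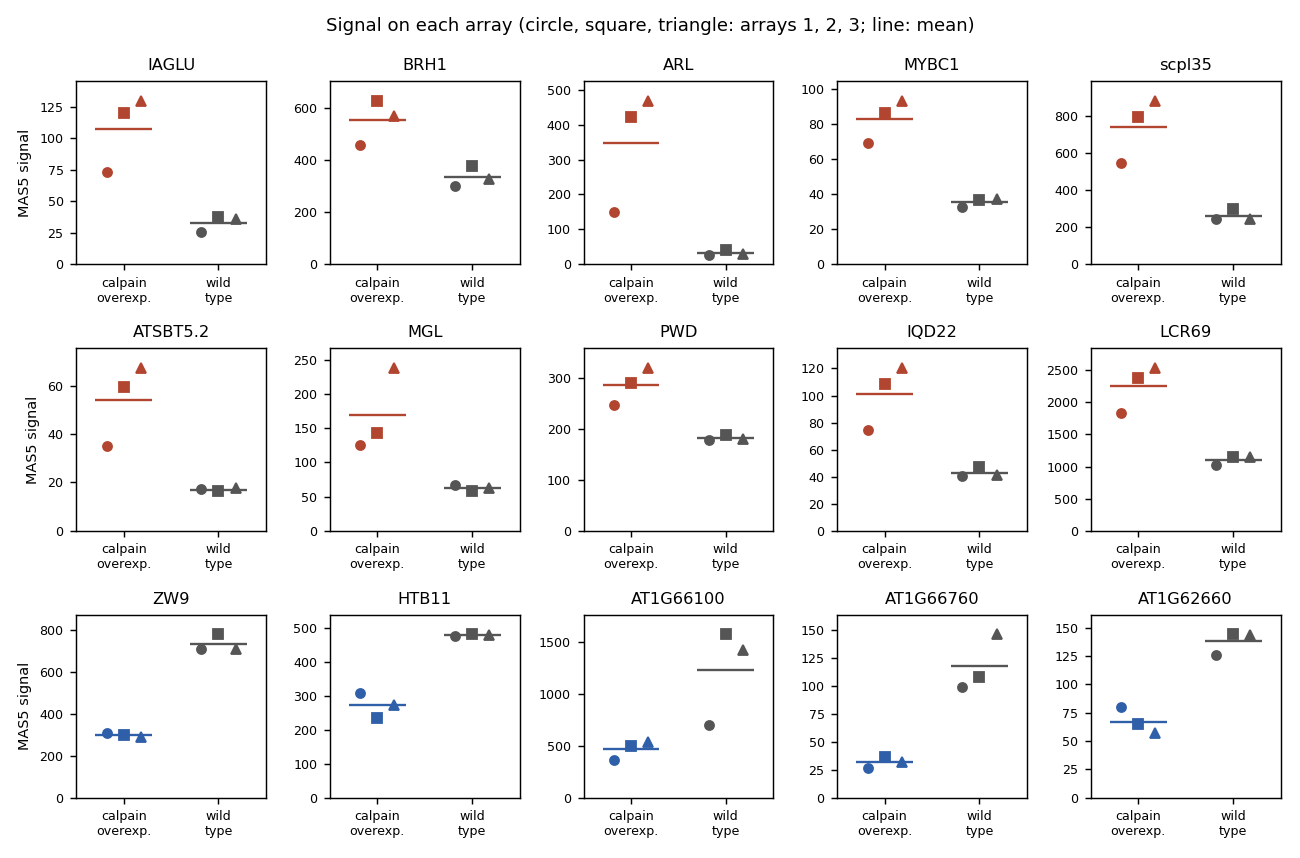
MAS5 signal (vertical axis, starting at 0) on the 3 calpain overexpressing arrays (left in each panel) and the 3 wild-type arrays (right) for 10 rises and 5 falls. Circles, squares and triangles are arrays 1, 2 and 3 and lines are means. Groups do not overlap in any panel, and the circle of the calpain overexpressing group lies nearest wild type in all 10 rises.

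Gene lists were drawn up by symbol and locus to describe functions, 21 in all, with earlier results of these data known. Histones and genes of mitosis and DNA replication were added as lists after falls among them had been seen, so their direction is no independent evidence. Across all 14151 probe sets the median log2 fold change was 0.01, with 7196 above 0 and 6955 below. The lists together held 27 of the 228 calls, 20 of the 114 rises and 7 of the 114 falls. Over all probe sets tested 1.61% were called, and the share over the members of all lists together was not computed. As the lists were chosen with results known, their total and its excess of rises are no independent evidence either. Wall-loosening enzymes held the most rises, and histones the most falls.

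**Figure D3:**
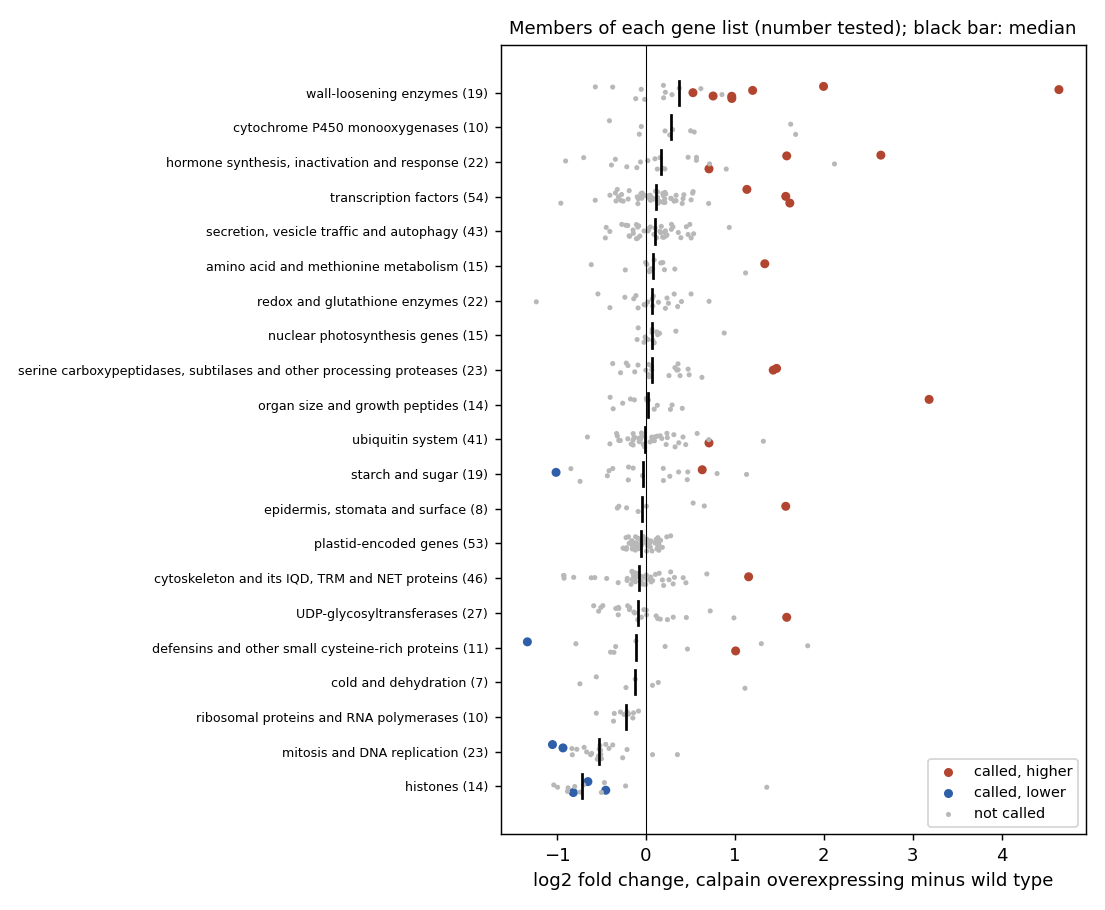
Log2 fold change, calpain overexpressing minus wild type, of each tested member of the 21 gene lists, with called rises in red, called falls in blue, and members not called in grey. The black bar is the list's median, which was highest for wall-loosening enzymes (0.38) and lowest for histones (-0.72).

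Histones package DNA, and most of their genes are transcribed while DNA is being copied. Of 14 histone probe sets tested, 3 fell and 0 rose, against 0.806% of all probe sets in either direction. The list's median was -0.72, with 13 of the 14 below 0. HTB11, a core histone of the H2B type, read 309, 234 and 273 in calpain overexpressing leaves, against 475, 481 and 480 in wild type (-0.82 ± 0.13, adjusted p = 0.0118). AT2G28720, another gene of the H2B type, read 84.7, 68.3 and 88.8 in calpain overexpressing leaves, against 151, 115 and 120 in wild type (-0.65 ± 0.15, adjusted p = 0.0498). AT2G30620, a linker histone, read 724, 701 and 621 in calpain overexpressing leaves, against 1017, 882 and 901 in wild type (-0.45 ± 0.10, adjusted p = 0.0494). The last pair passed the threshold narrowly.

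Other histone members had lower means without passing the test. HTB1 read 450, 237 and 213 in calpain overexpressing leaves, against 635, 494 and 461 in wild type (-0.88 ± 0.26, adjusted p = 0.118). HTR12, the histone variant of centromeres, read 39.5, 21.9 and 22.4 in calpain overexpressing leaves, against 65.2, 49.1 and 38.1 in wild type (-0.80 ± 0.24, adjusted p = 0.115), so its groups overlapped. The 1 member above 0 was HIS1-3, a linker histone known from drought-stressed plants, at 2.32, 22.7 and 51.0 in calpain overexpressing leaves, against 7.17, 2.60 and 3.90 in wild type (1.36 ± 0.71, adjusted p = 0.329). On 9 of the 14 every calpain overexpressing array lay below every wild-type array, which held for 9.72% of all probe sets. Histone genes occur in near-identical copies, so a probe set can read more than the gene listed for it. In bulk leaf RNA, fewer cells of a kind and less RNA per cell cannot be told apart.

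Genes of mitosis and DNA replication lay on the same side. Of 23 tested, 2 fell and 0 rose, against 0.806% of all probe sets in either direction, with a median of -0.52 and 21 below 0. AT4G15890, a subunit of condensin, which compacts chromosomes, read 40.7, 23.0 and 19.3 in calpain overexpressing leaves, against 70.2, 54.7 and 52.3 in wild type (-1.05 ± 0.23, adjusted p = 0.0466). AT1G69400, a WD40 protein of the BUB3 type, which acts in the spindle checkpoint, read 19.1, 17.1 and 13.8 in calpain overexpressing leaves, against 37.1, 34.0 and 33.7 in wild type (-0.93 ± 0.19, adjusted p = 0.0403). Both genes had low signals, and on overexpressing arrays 2 and 3 those of AT1G69400 were below the level needed for testing. BUB3.1, its relative, read 144, 86.6 and 81.4 in calpain overexpressing leaves, against 217, 148 and 185 in wild type, and missed the threshold (-0.83 ± 0.20, adjusted p = 0.0644). The kinases AUR1, AUR2 and AUR3, the topoisomerase TOPII and the replication helicase subunit PRL had values between -0.69 and -0.41, and none was called. CKS (0.36) and ATZW10 (0.08) were the members above 0.

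The calls in both lists depended on single arrays. The list medians kept their sign under all 21 alternatives of processing and arrays used. They ran from -0.93 to -0.54 for histones and from -0.77 to -0.38 for mitosis and replication, lists added after falls had been seen. Without calpain overexpressing array 1, 11 of 14 histones and 11 of 23 mitosis genes fell, against 6.43% of all probe sets, and 1 histone, HIS1-3, rose. Without calpain overexpressing array 2 or without wild-type array 2 or 3, 0 in either list was called by limma, and without wild-type array 1 or calpain overexpressing array 3 the counts were 1 histone and 0 mitosis genes. At an unadjusted p under 0.05, between 9 and 13 histones and between 4 and 12 mitosis genes lay lower with 1 of these 5 arrays left out, against 5.29% to 7.71% of all probe sets. HTB11 lost its call without wild-type array 2 or 3 or overexpressing array 2, and the other 4 calls without any wild-type array, either of overexpressing arrays 2 and 3 or, for AT2G28720, AT2G30620 and AT4G15890, calpain null array 2 or 3, with adjusted p up to 0.214. The median histone difference from the wild-type mean was -0.30 on calpain overexpressing array 1, -0.93 on array 2 and -0.74 on array 3, against 0.25, -0.06 and -0.11 on wild-type arrays 1, 2 and 3. For mitosis and replication it was -0.10, -0.74 and -0.78 on the calpain overexpressing arrays, against 0.21, -0.09 and -0.13 on the wild-type arrays. Array 1 was thus the highest of its group in both lists and both genotypes.

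**Figure D4:**
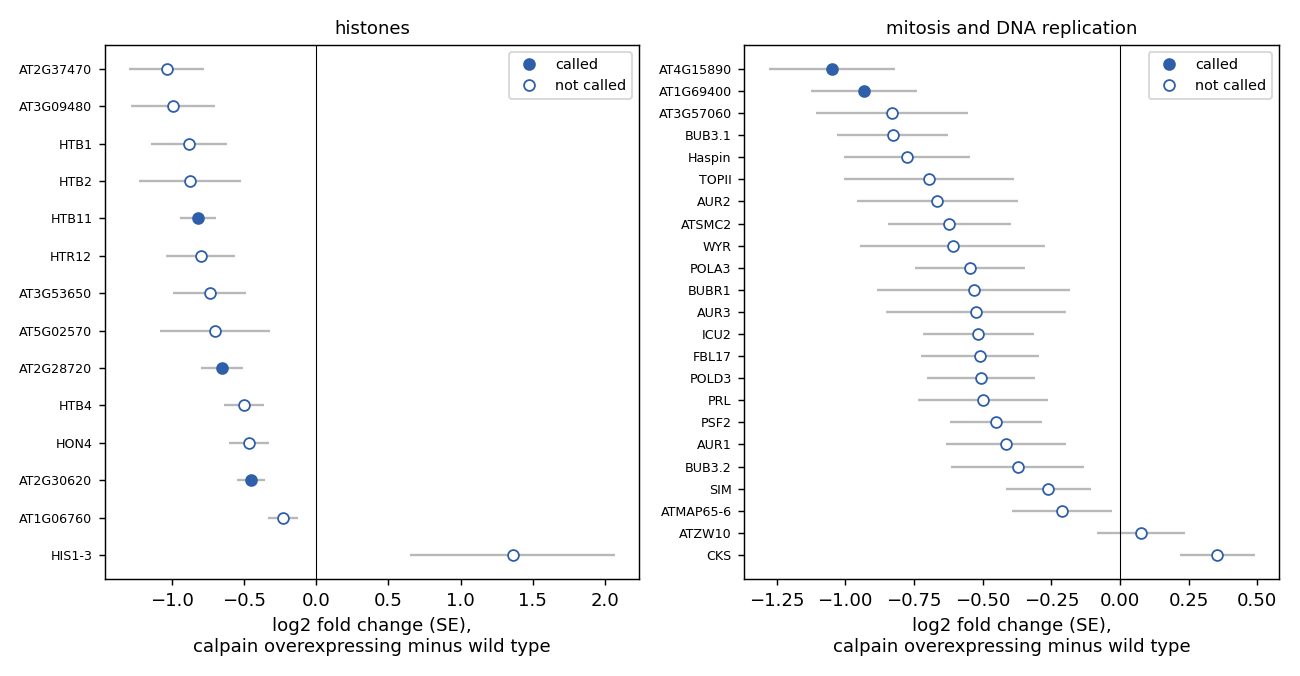
Log2 fold change with its SE, calpain overexpressing minus wild type, for 14 histone probe sets (left) and 23 of mitosis and DNA replication (right), with called members filled. All but HIS1-3 on the left, and CKS and ATZW10 on the right, lie below 0, and 5 are called.

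Wall-loosening enzymes, which let the wall extend during growth, held 7 of the rises, with 0 falls among 19 tested and a median of 0.38, against 0.806% of all probe sets in either direction. The list covers expansins, xyloglucan-modifying XTH enzymes and GH9 cellulases. GH9B8 read 245, 340 and 462 in calpain overexpressing leaves, against 57.5, 101 and 93.7 in wild type (2.00 ± 0.24, adjusted p = 0.00273). It was the one member whose call held without each array in turn. XTH19, near 0 in wild type at 0.513, 5.28 and 1.32, read 36.2, 157 and 443 in calpain overexpressing leaves, and its call was lost without overexpressing array 2 or wild-type array 3, at an adjusted p of up to 0.0629. EXPA4, GH9C2 and EXPB3 had log2 fold changes of 0.76, 1.20 and 0.97, and lost the call without overexpressing array 2 or 3, among others, at an adjusted p of up to 0.165. GH9B13 (0.97) and XTH32 (0.53), named after their values were seen, made up the rest and lost the call without the same arrays, at an adjusted p of up to 0.174.

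Rises linked to hormones numbered 3 of 22 tested, against 0.806% of all probe sets, with 0 falls and a median of 0.18. IAGLU encodes an enzyme that couples the auxin indole-3-acetic acid to glucose. It read 73.2, 120 and 130 in calpain overexpressing leaves, against 25.5, 37.3 and 36.0 in wild type (1.58 ± 0.29, adjusted p = 0.0274), and it was also the 1 rise among 27 UDP-glycosyltransferases, of which 0 fell. AT3G53250, of the auxin-responsive SAUR type, read 29.7, 79.2 and 75.2 in calpain overexpressing leaves, against 4.83, 10.3 and 3.94 in wild type (2.64 ± 0.52, adjusted p = 0.0303). BRH1, a RING protein that responds to brassinosteroid, read 459, 628 and 569 in calpain overexpressing leaves, against 299, 378 and 328 in wild type (0.71 ± 0.15, adjusted p = 0.0413). BRH1 was also the single call among 41 genes of the ubiquitin system. All 3 calls were lost without any wild-type array or without overexpressing array 2 or 3, and BRH1 also without calpain null array 3, with adjusted p up to 0.191.

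Organ growth was represented by ARL. This gene promotes cell expansion in lateral organs. It read 148, 424 and 469 in calpain overexpressing leaves, against 25.9, 41.0 and 27.2 in wild type (3.18 ± 0.69, adjusted p = 0.0466). Array 1 read well below the other overexpressing arrays, and the SE was large. The 13 other members of its list, among them RALF peptides and the receptor kinase THE1, did not pass the test. The ARL call was lost without any wild-type array, overexpressing array 2 or 3, or calpain null array 3, with adjusted p up to 0.195.

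Transcription factors gave 3 rises and 0 falls among 54 tested, against 0.806% of all probe sets in either direction, and their median of 0.12 was near that of all probe sets. MYBC1, a MYB-type factor, read 69.1, 86.2 and 93.4 in calpain overexpressing leaves, against 32.8, 36.5 and 37.2 in wild type (1.14 ± 0.18, adjusted p = 0.0146). bZIP44, a leucine zipper factor, read 31.3, 42.6 and 80.2 in calpain overexpressing leaves, against 19.3, 7.12 and 15.3 in wild type (1.62 ± 0.35, adjusted p = 0.0448). SHN3, an activator of wax and cutin genes, lay below the signal required by the naming rule and was named after its values were seen. It read 13.99, 26.6 and 23.3 in calpain overexpressing leaves, against 3.26, 3.58 and 7.34 in wild type (1.57 ± 0.33, adjusted p = 0.0413). SHN3 was also the 1 call among 8 genes of the epidermis and leaf surface. The calls of MYBC1 and bZIP44 were lost without any wild-type array or overexpressing array 2 or 3, and that of bZIP44 without calpain null array 2 or 3, with adjusted p up to 0.175. SHN3 lost its call without any wild-type array or overexpressing array 2 or 3, among others, with adjusted p up to 0.203.

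SPCH, CR4, GEM, FAMA, MUTE and TRY, genes tied to epidermal cell fates, did not pass the test. SPCH, which starts the stomatal lineage, read 134, 138 and 112 in calpain overexpressing leaves, against 142, 144 and 122 in wild type (-0.09 ± 0.13, adjusted p = 0.757). The receptor kinase of the epidermis, CR4, read 40.4, 26.8 and 24.2 in calpain overexpressing leaves, against 44.4, 41.7 and 28.6 in wild type (-0.30 ± 0.24, adjusted p = 0.525). GEM, a regulator of epidermal patterning, had a value of -0.22 ± 0.14. None of SPCH, CR4 and GEM was called when any array was left out. The marker gene FAMA read 51.0, 42.1 and 37.0 in calpain overexpressing leaves, against 54.6, 55.5 and 68.2 in wild type (-0.43, adjusted p = 0.197). Its groups did not overlap, as on 9.72% of all probe sets with calpain overexpressing leaves lower. MUTE had a value of -0.32, while the trichome marker TRY lay higher, at 0.53.

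Among 23 serine carboxypeptidases, subtilases and other processing proteases, 2 rose and 0 fell, with a median of 0.07, against 0.806% of all probe sets in either direction. ATSBT5.2, a subtilase, read 34.9, 59.4 and 67.4 in calpain overexpressing leaves, against 17.1, 16.3 and 17.5 in wild type (1.43 ± 0.23, adjusted p = 0.0146). The serine carboxypeptidase-like gene scpl35 read 544, 794 and 883 in calpain overexpressing leaves, against 241, 296 and 245 in wild type (1.47 ± 0.31, adjusted p = 0.0403). Both were lowest on overexpressing array 1, and both calls were lost without any wild-type array or overexpressing array 2 or 3 (scpl35 also without calpain null array 3), with adjusted p up to 0.173.

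Metabolic genes moved singly. In starch and sugar metabolism, 1 of 19 rose and 1 fell, against 0.806% of all probe sets either way, with a median of -0.04 whose sign changed under 5 of 21 alternatives. PWD, a kinase that phosphorylates starch so that it can be broken down, read 247, 291 and 321 in calpain overexpressing leaves, against 178, 188 and 181 in wild type (0.63 ± 0.12, adjusted p = 0.0275). AT1G62660, which encodes an acid invertase of the vacuole that splits sucrose, read 79.9, 64.8 and 57.0 in calpain overexpressing leaves, against 126, 144 and 144 in wild type (-1.01 ± 0.15, adjusted p = 0.0114). In amino acid metabolism, MGL was the 1 rise of 15. It encodes methionine gamma-lyase, which degrades methionine, and read 125, 143 and 238 in calpain overexpressing leaves, against 66.4, 57.5 and 62.3 in wild type (1.34 ± 0.24, adjusted p = 0.0261). All 3 calls were lost without wild-type array 2 or 3 or overexpressing array 2 or 3, and those of PWD and MGL without wild-type array 1, with adjusted p up to 0.142.

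The small cysteine-rich proteins, many of them antimicrobial, went in opposite directions. LCR69, of the defensin type, read 1837, 2380 and 2538 in calpain overexpressing leaves, against 1023, 1145 and 1154 in wild type (1.01 ± 0.22, adjusted p = 0.0448). AT1G66100, a thionin, read 366, 496 and 532 in calpain overexpressing leaves, against 700, 1569 and 1423 in wild type (-1.33 ± 0.28, adjusted p = 0.0422). These were the calls among 11 tested, whose median was -0.11, or 0.05 with the filter at the median signal. In the cytoskeleton list, 1 of 46 rose and 0 fell. Over all probe sets the share was 0.806% in either direction. That gene was IQD22, of a family that binds calmodulin and microtubules, at 74.7, 109 and 121 in calpain overexpressing leaves, against 40.2, 47.0 and 40.9 in wild type (1.16 ± 0.23, adjusted p = 0.0316). All 3 calls were lost without wild-type array 2 or 3 or overexpressing array 2 or 3, and at least 1 of them without wild-type array 1 or calpain null array 2 or 3, with adjusted p up to 0.187.

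7 lists had 0 calls in limma at the adjusted threshold. They covered P450 monooxygenases, redox enzymes, nuclear photosynthesis genes, plastid-encoded genes, vesicle traffic and autophagy, cold and dehydration, and ribosomal proteins with RNA polymerases. At an unadjusted p under 0.05, members lying higher numbered 4 of 10 P450, 5 of 22 redox, 2 of 15 photosynthesis, 6 of 43 traffic and 1 of 7 cold genes, against 9.31% of all probe sets. Members lying lower numbered 3 redox, 2 traffic, and 1 each of plastid, cold and RNA polymerase genes, against 8.83%. CYP71B22, a P450, read 123, 352 and 280 in calpain overexpressing leaves, against 49.98, 76.7 and 85.8 in wild type (1.68 ± 0.44, adjusted p = 0.0765). MSRB6, a methionine sulfoxide reductase, which repairs oxidised methionine, read 310, 338 and 243 in calpain overexpressing leaves, against 556, 656 and 924 in wild type (-1.23 ± 0.32, adjusted p = 0.0765). In both the groups did not overlap, but the spread within them was wide. XERICO, a RING protein of drought responses, had a value of 1.11 ± 0.30, and the antenna protein gene LHCB4.3 one of 0.88 ± 0.23. Both missed the threshold, at adjusted p of 0.0848 and 0.0753. The 53 plastid-encoded genes spanned a narrow range, -0.26 to 0.28. All 10 ribosomal and RNA polymerase genes lay below 0, at a median of -0.23, with NRPC1 lowest at -0.56 ± 0.18 (adjusted p = 0.146). Without calpain overexpressing array 1, the rises were 7 of 43 traffic, 3 of 10 P450 and 4 of 22 redox genes, with 1 each in the photosynthesis, plastid and cold lists, against 6.21% of all probe sets. The falls were then 3 redox genes, 1 plastid gene and 1 of the ribosomal and RNA polymerase list, against 6.43%.

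The size of the change differed between the calpain overexpressing arrays, array 1 being the weakest. Over the 114 rises, the median log2 difference from the wild-type mean was 0.87 on calpain overexpressing array 1, 1.20 on array 2 and 1.26 on array 3. Over the 114 falls it was -0.76, -1.05 and -1.09. Array 1 was the nearest of the 3 to wild type in 103 rises and 74 falls, or 177 of the 228, while it was nearest in 55.3% of the probe sets not called. These values describe calls that used the same arrays.

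A reading that does not reuse an array comes from calls made without it, although the wild-type arrays and the choice of probe sets to test are shared. Without calpain overexpressing array 1, 1789 probe sets were called, and array 1 itself showed a median change of 0.19 in the called direction, against 0.74 on the mean of arrays 2 and 3. That is 26.0% of the size, with the same sign in 1437 of 1789. Without array 2, 26 were called, and array 2 showed 1.36, against 1.49 on the others. Without array 3, 49 were called, and array 3 showed 1.43, against 1.51. On both of these arrays every called probe set kept its sign. As more calls take in smaller changes, the 24 with the smallest p were also read in each case. Array 1 then showed 1.17 against 1.99 on the others (59.1%), array 2 1.43 against 1.60 (89.8%), and array 3 1.70 against 1.80 (94.3%).

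**Figure D5:**
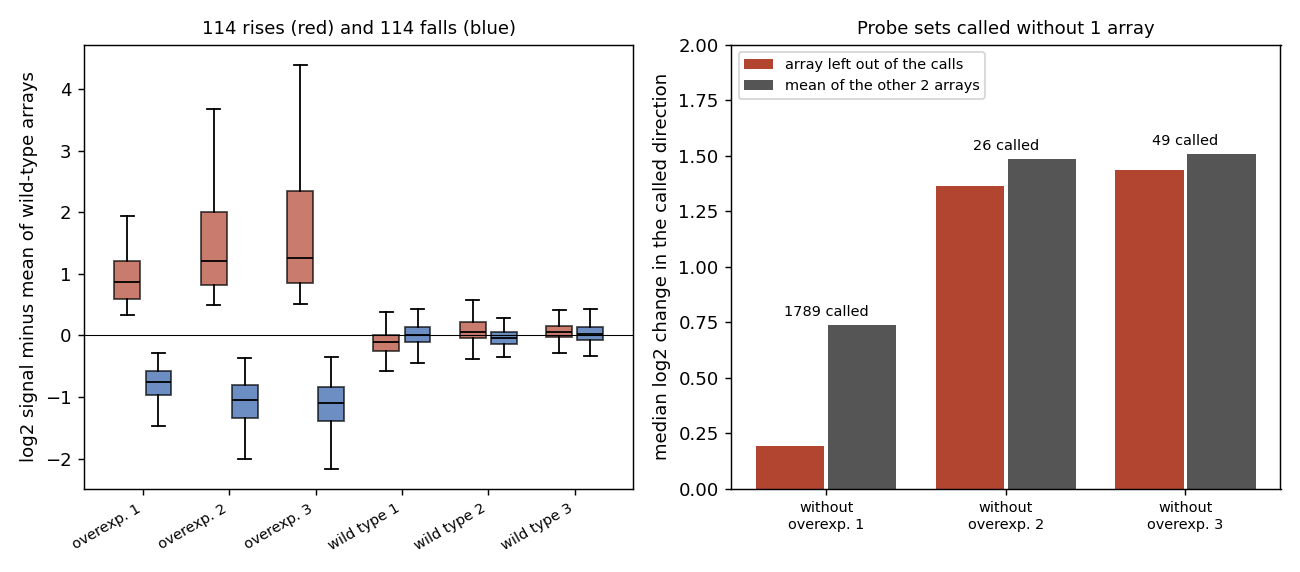
Left, log2 signal minus the mean of the wild-type arrays on each array for the 114 rises (red) and 114 falls (blue), where boxes span the quartiles, lines are medians and whiskers reach 1.5 times the box. Right, for probe sets called without 1 calpain overexpressing array, the median change on that array (red, 0.19, 1.36 and 1.43) beside the mean of the other 2 (grey, 0.74, 1.49 and 1.51).

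In measures of array quality, calpain overexpressing array 1 had the lowest 25S rRNA control signal of the series, 160. Calpain null array 1 was close at 167, and the highest was 384. Calpain overexpressing array 1 correlated less with its replicates (0.969 and 0.959) than these did with each other (0.984). The same held for array 1 of wild type (0.977 and 0.980, against 0.986) and of calpain null (0.965 and 0.968, against 0.978). The GAPDH 3′ to 5′ ratio of calpain overexpressing array 1, 1.02, was the lowest of the series, with 1.03 on array 2 and a highest of 1.20. Its actin ratio was 1.72, with 1.57 and 2.11 as the lowest and highest elsewhere. The median signals of the arrays differed little, from 33.1 to 35.7. The part of these measures in the weaker change was not tested. Few of the marker genes chosen to check the tissue have a listed probe set: 1 of 13 for mature leaf, 4 of 10 for epidermis, 1 of 3 each for trichome and shoot apex, PYK10 for root, and 0 for flower, phloem and seed. None of those tested was called. The leaf marker RCA, Rubisco activase, read 5330, 4818 and 4629 in calpain overexpressing leaves, against 5491, 5606 and 4734 in wild type. PYK10, a root marker, read 9.96, 20.8 and 112 in calpain overexpressing leaves, against 43.3, 15.2 and 19.4 in wild type, and CLV3, of the shoot apex, was at most 3.98 on any of the 6 arrays.

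Some changes were nearly as large on array 1 as on the others. The genes given here were picked for the smallest spread over the overexpressing arrays, so their evenness follows from the choice. The most even rise was AT1G70620, a gene of unknown function, at 156, 155 and 158 in calpain overexpressing leaves, against 124, 78.3 and 87.9 in wild type (0.70 ± 0.15, adjusted p = 0.0466). EXPA4, an expansin, read 323, 337 and 325 in calpain overexpressing leaves, against 190, 188 and 201 in wild type (0.76 ± 0.12, adjusted p = 0.0162). AT4G32060, a calcium-binding protein of the mitochondrial uniporter type, read 517, 537 and 557 in calpain overexpressing leaves, against 281, 368 and 313 in wild type. EXPB3 and the polygalacturonase-type gene AT1G48100 completed the 5 most even rises, with coefficients of variation of 4.33% and 4.92% over the calpain overexpressing arrays. The most even falls were AT1G78170, ZW9, AT1G49500, AT5G45480 and the receptor kinase gene AT1G12460, at 2.29% to 7.91%. ZW9 alone among these 10 kept its call without each array in turn. The other 9 lost it without overexpressing array 2 or 3 or a wild-type array, with adjusted p up to 0.195.

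The most uneven rises were steep ones from a low wild-type level, with means of at most 32.7. XTH19 had a coefficient of variation of 98.6%, and AT1G62770 and AT4G35720 had 78.8% and 64.8%. AT5G22460, of the alpha/beta hydrolase type, read 85.6, 206 and 358 in calpain overexpressing leaves, against 10.4, 63.8 and 23.9 in wild type (2.67 ± 0.59, adjusted p = 0.0478). The polygalacturonase-type gene AT2G43870 read 35.4, 102 and 150 in calpain overexpressing leaves, against 1.24, 10.1 and 6.34 in wild type (3.30 ± 0.53, adjusted p = 0.0146). In all 5 array 1 was the lowest and array 3 the highest of the overexpressing arrays. Among falls, AT3G28270 read 13.5, 0.736 and 0.934 in calpain overexpressing leaves, against 63.7, 28.8 and 42.5 in wild type (-2.74 ± 0.52, adjusted p = 0.0293). AT5G05600, a jasmonate oxidase, read 11.2, 5.99 and 22.3 in calpain overexpressing leaves, against 103, 50.1 and 101 in wild type (-2.45 ± 0.43, adjusted p = 0.0217). It broke the pattern, since array 3 was there the nearest to wild type. The GDSL lipase gene AT4G28780, AT5G38300 and AT5G62550 had spreads of 47.3%, 52.1% and 41.8%, with array 1 nearest wild type. Of these 10 genes only AT4G35720 held without each array in turn, and it reached the level used for testing on the overexpressing arrays alone. The others were lost without wild-type array 3 and without overexpressing array 2, with adjusted p up to 0.192.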

How the data were processed

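The deposited intensity values of these ATH1 arrays came from MAS5 in GCOS, per the submitters' processing notes, as 1 linear signal per probe set. The trimmed mean was 100.01 on every array, so changes are relative to each array's total. Groups came from the submitted labels. Signals were taken as log2(signal + 3.63), the 20th percentile, which understates folds of dim probe sets. A probe set was tested if it reached 17.6, the 40th percentile, on 3 or more of the 9 arrays, and 64 controls were left out. Group means of the 3 genotypes were fitted with limma 3.58.1 (R 4.3.3) with an intensity trend and 6 residual degrees of freedom; tests were two-sided. On simulated data with independent noise, the fit recovered 66 of 100 2-fold and 93 of 100 4-fold changes, with 7 false calls. The simulation had no departure of whole arrays, so it could not test the dependence on single arrays. Genes were named through the platform annotation and the TAIR10.1 RefSeq table, which matched 13436 of 13513 single-gene probe sets.

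Members, gene lists and rules were chosen with earlier results of these data known. Named genes were, per list, up to 4 rises and 4 falls with the smallest p (3 members where none was called), up to 6 each outside the lists, up to 4 each with no listed gene, and the 5 most and 5 least even each way. Alternatives covered pseudocount, filter, normalization, trend, weights, samples fitted, block, cross-hybridising probe sets and left-out arrays. Promoter motifs were not analysed here. Figures used matplotlib 3.10.9 in Python 3.11.15. The number of arrays limits the precision.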

Additional observations from a re-analysis of the deposited data

How the results depend on the processing

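Over 21 alternatives the 228 calls varied with the arrays used more than with scaling. Counts stayed within 1.5 times under either other pseudocount, a filter at the median signal, quantile normalization, median centring (97 rises and 131 falls), only the 6 arrays (245) and without cross-hybridising probe sets. Without a filter 76 probe sets were called, and without an intensity trend 102. Array weights, which gave calpain overexpressing array 1 a weight of 0.39, called 2663, and leaving out the arrays numbered 1 of all groups called 1923. With single arrays left out the count ran from 26 (calpain overexpressing array 2) to 1789 (calpain overexpressing array 1), with 30 to 58 without a wild-type array, 49 without calpain overexpressing array 3 and 367 without calpain null array 1. The 27 calls in the gene lists became 9 without a filter, 12 without a trend, 131 with array weights, 103 without the arrays numbered 1, and 1 to 97 with single arrays left out. With the replicate number as a block, 770 probe sets were called, 55 of them in the lists. Deviations from the group means correlated at 0.324, 0.096 and 0.171 for arrays of the same number in calpain overexpressing and wild type. Between calpain overexpressing and calpain null the values were 0.371, 0.064 and 0.093, and between calpain null and wild type -0.007, -0.104 and -0.128. These values do not settle whether the numbers pair the samples, and the fit reported left the numbers out. No called gene named here changed sign under any alternative, but the medians of 7 of the 21 lists did, all of them within 0.12 of 0 in the fit reported: ubiquitin, starch and sugar, growth, plastid, epidermis, cold and small cysteine-rich proteins. Of the 58 called genes named by the rule, 18 kept the call under all 21 alternatives, as did 22 of the 228. The held-out strength of each calpain overexpressing array moved by less than 0.70, the SD over the 3 arrays, under other pseudocounts, filters and normalizations, with array 1 at 0.17 to 0.22, array 2 at 1.31 to 1.43 and array 3 at 1.25 to 1.99, the last without a filter. No probe set is listed here for DEK1, and dim probe sets have understated folds.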
